A study of Drosophila melanogaster with 18 samples.

Results

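Glutathione S-transferases are enzymes that join the tripeptide glutathione to reactive or foreign molecules. The members described here are the genes of the deposited count table whose FlyBase symbol is Gst followed by a class letter (D, E, O, S, T or Z) and a number. This rule gave 35 of the 17753 gene identifiers in the table. They comprise 11 genes of the delta class (GstD), 14 of the epsilon class (GstE) and 10 of the other classes, which are omega (GstO, 3 genes), sigma (GstS, 1 gene), theta (GstT, 4 genes) and zeta (GstZ, 2 genes).

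The delta and epsilon classes are large in insects and are known for breaking down plant toxins and insecticides, and many of their genes lie side by side on the chromosome. GstD1 metabolises DDT and is a standard reporter gene for cnc, the fly relative of mammalian Nrf2, a transcription factor that is released from its inhibitor Keap1 under oxidative or electrophilic stress. Omega enzymes act as thiol transferases and dehydroascorbate reductases, and the zeta enzyme takes part in tyrosine breakdown. Copper is a redox-active metal that glutathione binds.

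RNA was sequenced after rRNA depletion from Drosophila melanogaster DL1 cells, a cultured line, in 6 groups of 3 libraries (A, B and C). The IntS6 line is a puromycin-selected DL1 population that stably carries FLAG-tagged IntS6, a subunit of the Integrator complex that cuts nascent RNA, behind the copper-inducible promoter of the metallothionein gene MtnA. The IntS12 line carries FLAG-tagged IntS12, another Integrator subunit, behind the same promoter. Parental DL1 cells carry no transgene, and the labels mention no puromycin for them. Each kind of cell was grown for 3 d, with 500 µM copper sulfate for the last 24 h or without it. The groups were thus the IntS6 line with copper and without it, the IntS12 line with copper and without it, and parental cells with copper and without it. Copper was added to switch on the transgenes, so copper-treated parental cells are the control for the metal itself. The lines are selected populations and were not described as clones, and the labels give the genotype of both lines without copper as WT. The series text calls the libraries of a group biological replicates but does not say whether each had its own culture. The p-values therefore reflect the scatter among these libraries alone, and that scatter may be technical.

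Library totals ran from 13.2 to 18.2 M (mega) counts, of which 70.2% to 73.4% fell on rRNA genes, leaving 3.69 to 4.94 M others. IntS6 averaged 2366 ± 174 CPM (counts scaled to library size, per M counts) in the IntS6 line with copper and 36.3 ± 1.45 CPM in parental cells with copper (SD, n = 3 each). IntS12 averaged 92.9 ± 3.92 CPM in the IntS12 line with copper and 3.62 ± 0.317 CPM in parental cells with copper. Each line already held more of its target RNA without copper: IntS6 was 2.55-fold higher in the IntS6 line (71.4 ± 3.58 CPM) than in parental cells (28.0 ± 1.51 CPM; edgeR adjusted p = 1.31e-10). IntS12 was 1.68-fold higher in the IntS12 line (8.44 ± 1.29 CPM) than in parental cells (4.98 ± 0.512 CPM; adjusted p = 0.0366), both without copper. Of 11 markers of plasmatocytes, the macrophage-like blood cells of the fly, 9 reached 1 CPM in every group. Of the fat body, muscle and germ line markers, 1 muscle gene, Mlc2, reached a mean of 1 CPM in 1 group (1.04 CPM in parental cells with copper), and Lsp1alpha, Lsp2, Fbp2 and up had no count in any library. The 4 neuron markers, nearly all elav, summed to 14.3 to 24.0 CPM over the libraries. In several groups 1 library led the family. Of the 23 members that could be tested, library C of the IntS12 line with copper held the highest value of its group for 16, library B of parental cells with copper for 14, library B of the IntS6 line with copper for 13 and library A of the IntS6 line without copper for 13.

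All 11 GstD genes lie within 20.8 kb on chromosome arm 3R, from 12364776 to 12385624 on BDGP6.54. GstD10, GstD9 and GstD1 are on the minus strand, and GstD2 to GstD8 and GstD11 follow on the plus strand. A group of 10 GstE genes shares 13.2 kb of arm 2R, from 18396638 to 18409835, with GstE10 on the minus strand and GstE1 to GstE9 on the plus strand. The other epsilon genes stand alone on 2R: GstE11 from 18503608 to 18505025, GstE12 from 24766718 to 24768172, GstE13 from 9122125 to 9123309 and GstE14 from 13239729 to 13241013. GstO3, GstO2 and GstO1 are neighbours on 3L, GstT1 and GstT2 on 2R, and GstZ1 and GstZ2 on 3R, while GstS1 is on 2R and GstT3 and GstT4 are on X. No member shares exon bases with another gene of the same strand. On the other strand, 25.1% of the exon bases of GstT2 overlap CG12926, 5.08% of those of GstE9 overlap imd and 3.50% of those of GstO2 overlap se. No source used here gives the strand setting of the counting, so reads in those stretches cannot be assigned with certainty. Members of a class resemble each other in sequence, and how reads that match several members were counted is not stated, so the split of reads between close members is uncertain. The non-whole part of the counts was at most 0.697% of a member's total (GstE2), which sets no limit on reads placed whole on 1 member or discarded.

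Of the 35 members, 23 passed the filter on low counts and were tested: 6 of 11 delta, 8 of 14 epsilon and 9 of 10 others. Nearby genes differed widely in level per kilobase of exon. In parental cells with copper, GstD1 stood at 191 ± 48.3 CPM per kb, while GstD2, the next gene on its plus-strand side, had 7 counts in all 18 libraries together. GstE6 stood at 117 ± 21.8 CPM per kb in parental cells with copper, while GstE5, its neighbour, had 15 counts in all libraries together. The other untested members ran from 65 counts down to none: over all libraries GstD7 had 65 counts, GstE2 47.3, GstD8 12, GstD10 8, GstZ2 2, and GstE1, GstE10 and GstE14 had 1 each. GstD11 and GstE4 had none, which allows up to 3 counts over the 18 libraries for counting error alone. GstE14, also called Noppera-bo, acts in the synthesis of the steroid hormone ecdysone.

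**Figure D1:**
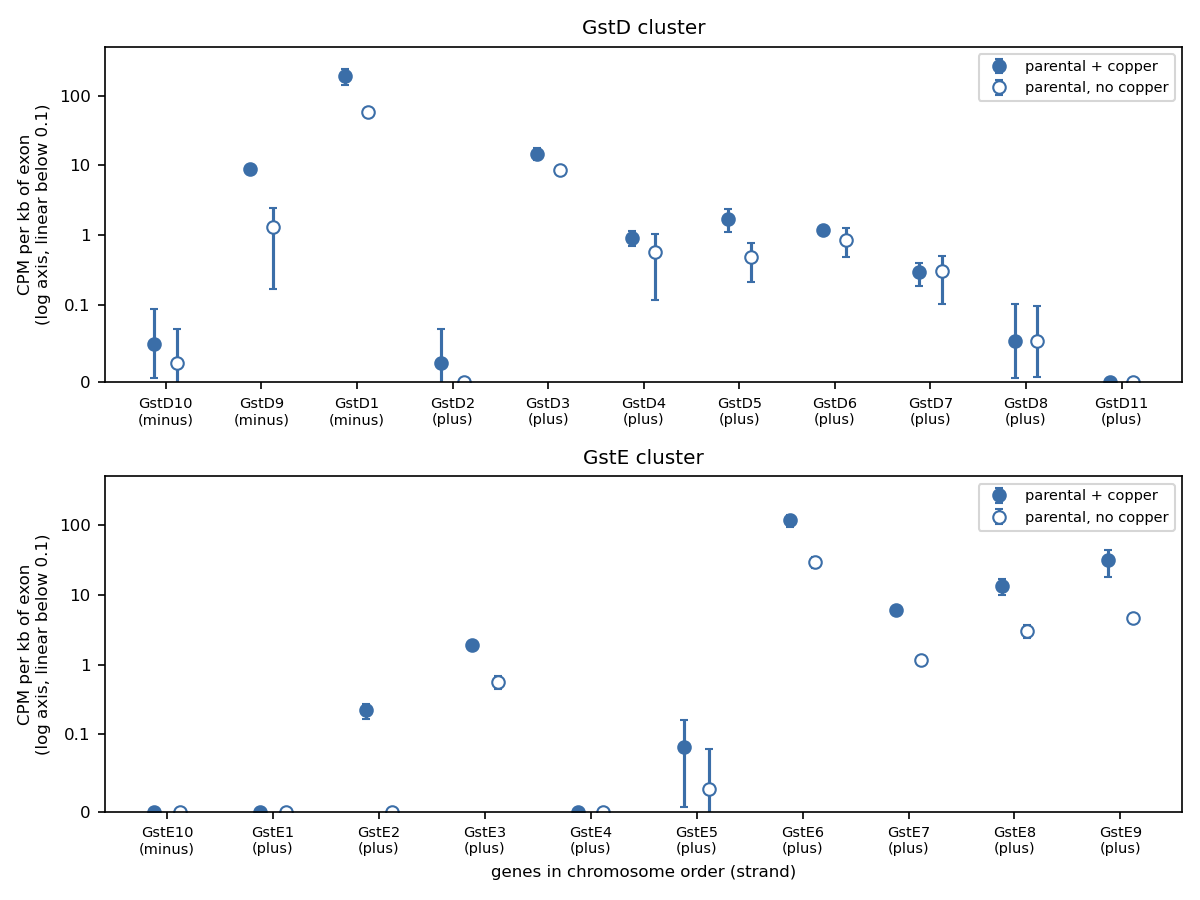
Level per kilobase of exon (CPM per kb, logarithmic axis that is linear below 0.1) of the 11 GstD genes and of the 10 neighbouring GstE genes in chromosome order, in parental cells with copper (filled) and without copper (open); points are means and bars SD of 3 libraries. GstD1 at 191 CPM per kb and GstE6 at 117 CPM per kb with copper each have 1 neighbour near 0 (GstD2 and GstE5), while on their other sides GstD9 stands at 8.75 and GstE7 at 6.04 CPM per kb.

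GstD1 had the highest level per kilobase of the family in all 6 groups. In parental cells with copper the next places were held by GstE6 (117 ± 21.8 CPM per kb), GstO3 (52.2 ± 16.0), GstE12 (42.6 ± 4.70), GstE9 (31.1 ± 13.4) and GstT1 (28.1 ± 1.97). From GstO3 to GstT1, neighbours in this order did not differ beyond their spread. In parental cells without copper the order was GstD1 (58.2 ± 5.08 CPM per kb), GstE12 (31.7 ± 1.72), GstE6 (29.5 ± 5.52), GstT1 (16.4 ± 1.82) and GstO3 (9.89 ± 3.13). GstE9 held place 5 in parental cells with copper and place 10 in parental cells without it.

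Copper raised most of the tested family in parental cells, with the highest median in the epsilon class and the next in the delta class. Of the 23 tested members, 17 rose and 3 fell at an adjusted p under 0.05 (edgeR quasi-likelihood test, Benjamini-Hochberg over all tested genes), against 38.6% of all 8174 tested genes called, 19.3% higher and 19.4% lower. All 8 tested epsilon members rose, as did 4 of 6 delta members, while the other classes split into 5 that rose, 3 that fell and 1 that was not called. The median log2 fold change was 2.07 over the epsilon members, 1.26 over the delta members and 0.44 over the others, beside 0.00 over all tested genes. Differences between classes were not tested. GstD5 and GstE3 passed the filter only through copper-treated libraries, so that they had to differ, and GstD4, GstD9 and GstE7 passed it more often with copper than without. The reverse held for GstZ1, a member that fell, which passed it in 9 untreated libraries and 4 copper-treated ones. In bulk RNA, fewer cells with a transcript and less of it per cell cannot be told apart.

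In the delta class, GstD1 measured 133, 207 and 142 CPM in parental libraries A, B and C with copper, against 53.1, 44.6 and 49.5 CPM without copper. The lowest copper library lay above every untreated one. The log2 fold change was 1.71 ± 0.14 (SE), a 3.28-fold rise with an adjusted p of 2.50e-09, and it was 1.49 without copper library B. GstD9, the minus-strand neighbour of GstD1, measured 6.18, 7.48 and 6.97 CPM with copper, against 0.394, 0.631 and 2.03 CPM without copper. Its libraries did not overlap either, and it rose by 2.80 ± 0.33 on the log2 scale (adjusted p = 6.88e-07). GstD3 measured 9.38, 13.6 and 10.1 CPM with copper, against 6.57, 6.31 and 6.17 CPM without copper, a smaller rise of 0.81 ± 0.14 (adjusted p = 0.000140). GstD5 was near the limit of detection, at 0.853, 1.84 and 1.65 CPM with copper and 0.197, 0.379 and 0.653 CPM without copper, and its log2 fold change was 1.84 ± 0.41 (adjusted p = 0.00107).

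GstD4 and GstD6 were the delta members not called in parental cells. GstD4 averaged 0.670 ± 0.159 CPM with copper and 0.417 ± 0.332 CPM without copper, with a log2 fold change of 0.71 (95% interval -0.26 to 1.67). Without untreated library C, its value became 1.53 with an adjusted p of 0.0276. GstD6 averaged 0.934 ± 0.118 CPM with copper and 0.673 ± 0.300 CPM without copper, a log2 fold change of 0.47 (95% interval -0.38 to 1.32). The libraries of both genes overlapped between the groups.

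Among the epsilon genes, GstE6 had the highest level per kilobase with copper and measured 69.9, 102 and 91.3 CPM in parental libraries A, B and C with copper, against 20.8, 18.9 and 26.9 CPM without copper. This was a log2 fold change of 1.99 ± 0.15 (adjusted p = 1.20e-09), with no overlap between the groups. GstE9, at the plus-strand end of the cluster, measured 18.8, 36.6 and 18.1 CPM with copper, against 3.88, 3.53 and 3.48 CPM without copper. Copper library B held about the sum of the other copper libraries, and the untreated libraries were close together. GstE9 rose by 2.77 ± 0.28 on the log2 scale (adjusted p = 1.06e-07), and by 2.34 without copper library B. GstE8, which lies between GstE7 and GstE9, measured 11.7, 19.1 and 14.4 CPM with copper, against 4.20, 3.09 and 2.90 CPM without copper. Its log2 fold change was 2.15 ± 0.21 (adjusted p = 4.99e-08). GstE11, which lies outside the cluster, measured 7.68, 16.5 and 9.97 CPM with copper, against 1.45, 1.83 and 1.67 CPM without copper. GstE11 rose 6.97-fold, a log2 fold change of 2.80 ± 0.29 (adjusted p = 1.13e-07), which was 2.41 without copper library B.

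The remaining epsilon members showed both large and small rises. GstE7 and GstE3 rose by 2.37 ± 0.26 and 1.74 ± 0.36 on the log2 scale in parental cells with copper over those without. GstE12 rose by 0.43 ± 0.09 and GstE13 by 0.36 ± 0.12. GstE12 and GstE13 stand alone on 2R, outside the cluster, as does GstE11, whose rise of 2.80 lay beside the 2.77 of GstE9 in the cluster. The call on GstE13 (adjusted p = 0.0183) was lost without copper library A (adjusted p = 0.105) or without untreated library C (adjusted p = 0.0529).

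GstE2, a cluster member, had too few reads to pass the filter, with 18 counts over the IntS6 libraries with copper and 1 without. It had 17 counts with copper and 2 without in the IntS12 line. In parental cells it had 9 counts with copper and 0 without. The ratio of summed counts, scaled by library size, was 17.1 in the IntS6 line (exact 95% interval 2.70 to 713) and 8.69 in the IntS12 line (2.06 to 77.5). In parental cells the scaled ratio was 2.97 when a floor of 3 counts stood in for the 0 of the untreated group. The exact 95% lower limit of the ratio, which also takes in the counting error of the 9, was 1.95. GstD7, the untested member with the most counts, had 19 counts with copper and 10 without in the IntS6 line, 8 and 8 in the IntS12 line, and 10 and 10 in parental cells. Its ratios were 1.81 in the IntS6 line (exact 95% interval 0.799 to 4.35), 1.02 in the IntS12 line (0.334 to 3.12) and 0.990 in parental cells (0.370 to 2.65), so no rise of GstD7 was detectable. Such intervals and floors describe counting error alone: the reads carry no molecular identifiers, and PCR copies cannot be told from separate molecules.

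The other classes did not move as one. GstO3, an omega gene, measured 46.8, 59.6 and 31.5 CPM in parental libraries A, B and C with copper, against 11.3, 9.02 and 5.81 CPM without copper. GstO3 rose by 2.40 ± 0.24 on the log2 scale (adjusted p = 8.44e-08), close to the values of the clustered epsilon genes. GstO1, in the same group of neighbours on 3L, fell: it measured 1.99, 2.29 and 1.20 CPM with copper, against 4.07, 3.22 and 3.85 CPM without copper. The highest copper library of GstO1 lay below the lowest untreated one, and its log2 fold change was -0.99 ± 0.26 (adjusted p = 0.00394). GstO2, the gene between them, rose by 0.44 ± 0.12 (adjusted p = 0.00819), a call that was lost without copper library B (log2 fold change 0.34, adjusted p = 0.0642).

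GstS1, the sigma enzyme that acts on the lipid peroxidation product 4-hydroxynonenal, measured 13.3, 9.05 and 13.6 CPM in parental libraries with copper, against 5.72, 5.74 and 4.72 CPM without copper. It rose by 1.13 ± 0.21 on the log2 scale (adjusted p = 0.000202), and here copper library B was the lowest of its group. The adjacent theta genes rose by similar amounts: GstT1 measured 25.9, 28.4 and 29.8 CPM with copper, against 17.1, 14.3 and 17.6 CPM without copper. The log2 fold change of GstT1 was 0.78 ± 0.10 (adjusted p = 1.63e-06), and that of GstT2 was 0.80 ± 0.13 (adjusted p = 3.50e-05). GstT2 measured 8.10, 9.94 and 7.95 CPM with copper, against 4.86, 5.17 and 5.01 CPM without copper. No library of either theta gene overlapped between the groups.

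GstZ1 and GstT4 also fell with copper in parental cells. GstZ1, the maleylacetoacetate isomerase of tyrosine breakdown, measured 0.497, 0.558 and 0.525 CPM with copper, against 1.31, 1.77 and 1.89 CPM without copper. It fell by 1.63 on the log2 scale (SE 0.35, adjusted p = 0.000868). GstT4 measured 2.84, 1.40 and 2.10 CPM with copper, against 3.68, 3.72 and 3.05 CPM without copper, a fall by 0.75 (SE 0.24, adjusted p = 0.0151). The fall of GstT4 was not called without copper library B (adjusted p = 0.13) or without untreated library B (adjusted p = 0.0529). GstT3 was not called, at 6.68, 4.97 and 3.82 CPM with copper and 5.12, 4.92 and 3.05 CPM without copper, and its libraries overlapped (log2 fold change 0.23, 95% interval -0.17 to 0.64).

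**Figure D2:**
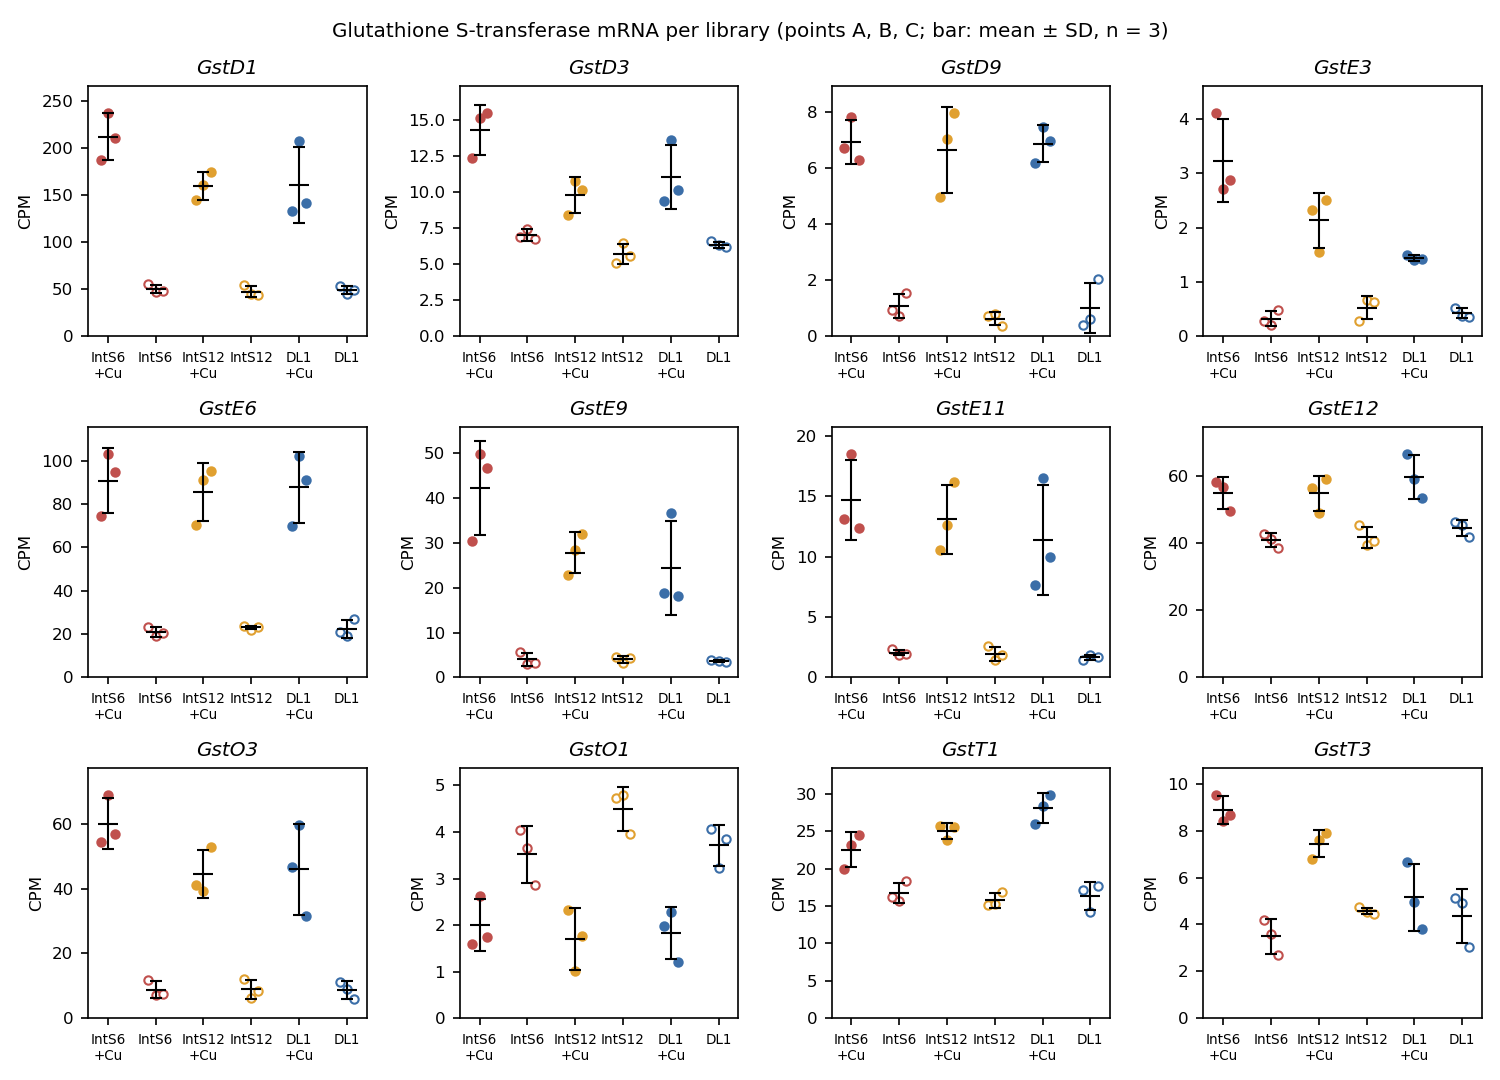
CPM per library of 12 members in the 6 groups (IntS6 line, IntS12 line and parental DL1 cells, each with copper, filled, left of without copper, open); points are libraries A, B and C from left to right, and lines are the mean ± SD. GstD1 with copper lies between 133 and 237 CPM in the 9 treated libraries and between 43.6 and 55.1 CPM in the 9 untreated ones, while GstO1 is lower with copper.

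Most tested members also rose with copper in the cells that carried a transgene. In the IntS6 line 18 of the 23 tested members rose and 2 fell, against 42.6% of all tested genes called, 23.2% higher and 19.3% lower. In the IntS12 line 17 rose and 3 fell, against 36.8% called, 19.2% higher and 17.6% lower. The rises in both lines take in GstD5 and GstE3, which passed the filter only through copper-treated libraries and so had to differ. The medians of their classes take them in as well. Over the epsilon members the median log2 fold change was 2.29 in the IntS6 line and 1.96 in the IntS12 line. Over the delta members it was 1.49 in the IntS6 line and 1.24 in the IntS12 line, and over the other classes 0.51 in the IntS6 line and 0.60 in the IntS12 line. The medians over all tested genes were -0.01 in the IntS6 line and 0.01 in the IntS12 line. Each comparison has its own treated and untreated libraries.

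In the IntS6 line GstD1 measured 188, 237 and 210 CPM with copper, against 55.1, 47.4 and 48.1 CPM without copper, a rise of 2.08 ± 0.14 on the log2 scale (adjusted p = 1.15e-10). GstD1 measured 144, 160 and 174 CPM in the copper-treated IntS12 line, against 54.5, 44.6 and 43.6 CPM without copper, a rise of 1.74 ± 0.14 (adjusted p = 2.07e-09). GstD9 rose by 2.68 ± 0.32 in the IntS6 line and by 3.36 ± 0.35 in the IntS12 line. The libraries with and without copper did not overlap for either gene in either line. GstE6 measured 74.4, 103 and 95.1 CPM in the IntS6 line with copper, against 23.4, 19.2 and 20.2 CPM without copper. In IntS12 cells it measured 70.5, 91.3 and 95.4 CPM with copper, against 23.6, 22.0 and 23.4 CPM without copper. GstE6 thus rose by 2.12 ± 0.15 in the IntS6 line and 1.90 ± 0.15 in the IntS12 line, beside 1.99 ± 0.15 in parental cells.

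GstO3 measured 54.5, 68.9 and 56.7 CPM in the IntS6 line with copper, against 11.8, 7.12 and 7.54 CPM without copper. In IntS12 cells GstO3 measured 41.1, 39.4 and 52.9 CPM with copper, against 12.1, 6.20 and 8.56 CPM without copper. It rose by 2.77 ± 0.24 in the IntS6 line and 2.29 ± 0.24 in the IntS12 line. GstO1 fell in both: by 0.83 in the IntS6 line (SE 0.26, adjusted p = 0.0115) and by 1.39 in the IntS12 line (SE 0.25, adjusted p = 0.000152). The fall of GstO1 in the IntS6 line was not called without copper library A (adjusted p = 0.0674) or untreated library A (adjusted p = 0.0526). GstT4 fell by 0.75 in the IntS6 line (adjusted p = 0.00958) and by 0.58 in the IntS12 line (adjusted p = 0.0436). The call on GstT4 in the IntS6 line was lost without untreated library A (log2 fold change -0.48, adjusted p = 0.103). The IntS12 call on GstT4 was lost when any 1 of the 6 libraries was left out (adjusted p from 0.0565 to 0.136), with DESeq2 (0.0869) and with library sizes alone (0.0603).

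Some members differed in call between the kinds of cell, which does not show that their copper responses differed. GstD4 was called in the IntS6 line alone, at a log2 fold change of 1.20 ± 0.43 (adjusted p = 0.0297). GstD4 was lost there without copper library A (adjusted p = 0.0794) or C (adjusted p = 0.076) and without untreated library A (adjusted p = 0.0814) or B (adjusted p = 0.102), as well as with DESeq2 (adjusted p = 0.0912) and with no filter (adjusted p = 0.0526). GstE13 was called in parental cells alone, with log2 fold changes of -0.02 in the IntS6 line (95% interval -0.26 to 0.22) and 0.24 in the IntS12 line (95% interval -0.00 to 0.48). GstZ1 fell in the IntS12 line by 1.27 (SE 0.34, adjusted p = 0.00514), and in the IntS6 line its value was -0.78 (adjusted p = 0.0638), which passed the threshold without copper library B (adjusted p = 0.0307) or without untreated library B (adjusted p = 0.0175). GstD6 was called in none of the 3 kinds of cell, but in the IntS12 line it reached -1.69 with an adjusted p of 0.0198 without copper library A. GstO2 rose in the IntS6 line by 0.68 ± 0.12 and in the IntS12 line by 0.37 ± 0.12, and the IntS12 call (adjusted p = 0.0205) was lost without copper library A (0.105) or C (0.0994) or untreated library B (0.108) or C (0.0683).

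**Figure D3:**
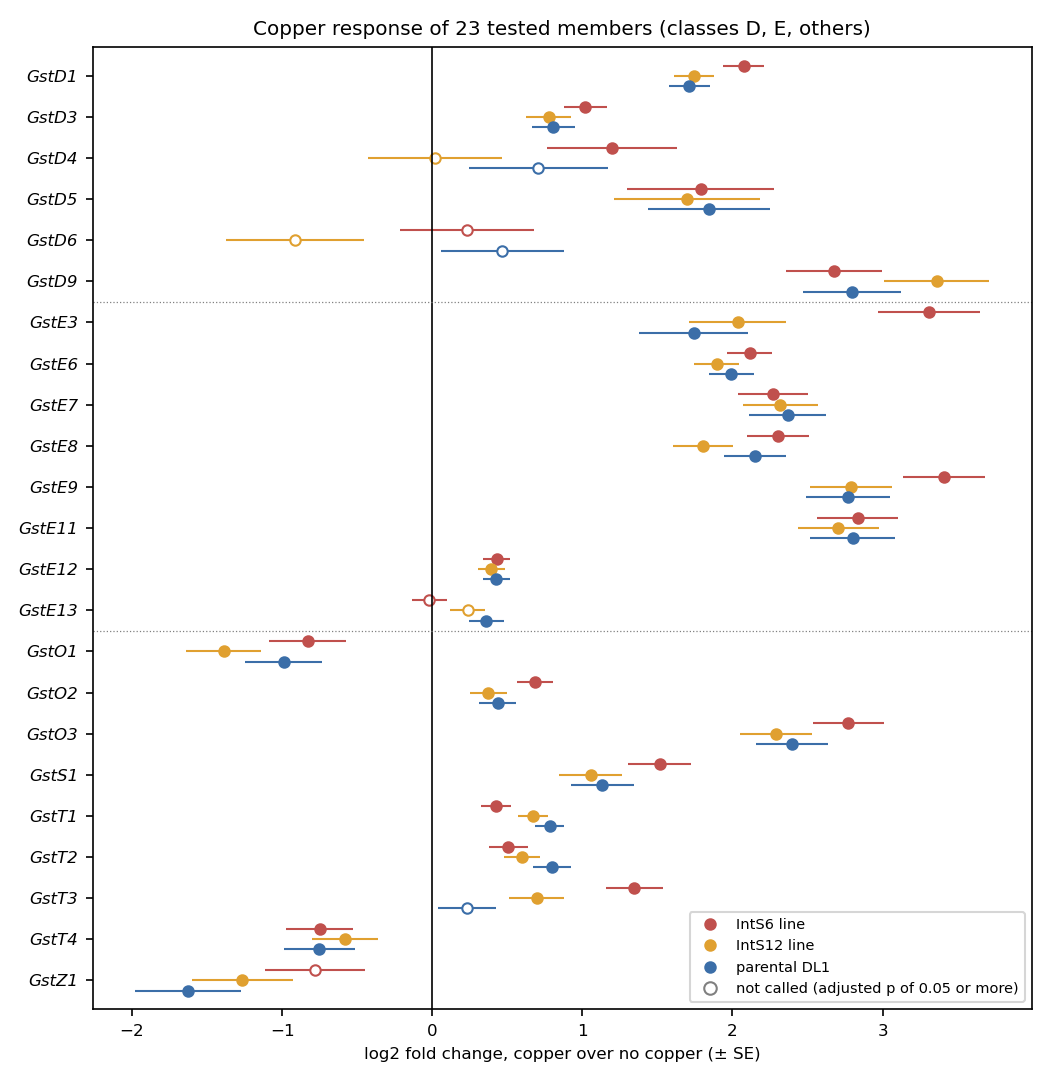
Log2 fold change of copper-treated over untreated libraries (± SE, 3 libraries a group) for the 23 tested members in the IntS6 line, the IntS12 line and parental DL1 cells; open points did not reach an adjusted p under 0.05, and dotted lines part classes D, E and others. GstE9 and GstE11 lie near 2.8 in parental cells, and GstO1 and GstT4 lie below 0 in all 3 kinds of cell.

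Cell type markers moved with copper too. The summed level of the 11 plasmatocyte markers ran from 330 to 377 CPM in parental cells with copper, against 430 to 553 CPM without copper. In the IntS12 line it ran from 344 to 402 CPM with copper, against 476 to 571 CPM without copper, and in the IntS6 line from 431 to 549 CPM with copper, against 498 to 546 CPM without copper. These sums follow their most abundant gene, Ppn, and single markers moved both ways. In parental cells Ppn averaged 171 ± 23.9 CPM with copper and 303 ± 58.6 CPM without copper. There drpr averaged 54.0 ± 6.39 CPM with copper and 40.8 ± 5.43 CPM without copper. The 4 crystal cell markers, nearly all PPO3, summed to 6.15 to 11.0 CPM in parental cells with copper, against 3.63 to 5.19 CPM without copper. The part of these shifts in the values of the family was not tested.

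A few members differed between the induced IntS6 line and parental cells under copper. Compared with copper-treated parental cells, the IntS6 line with copper had 3 of 23 tested members higher and 1 lower, against 8.91% of all tested genes called, 7.45% higher and 1.46% lower. GstE3, GstE9 and GstT3 were higher and GstT1 was lower. The median log2 fold change was 0.18 over the delta members, 0.25 over the epsilon members and 0.24 over the others, beside -0.01 over all tested genes. This comparison shares its copper-treated parental libraries with the copper comparison in parental cells.

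GstE3 measured 4.11, 2.71 and 2.87 CPM in libraries A, B and C of the IntS6 line with copper, against 1.49, 1.40 and 1.42 CPM in parental cells with copper. The groups did not overlap, and the log2 fold change was 1.18 ± 0.26, a 2.26-fold difference with an adjusted p of 0.00399. GstT3, a theta gene on X, measured 9.53, 8.40 and 8.69 CPM in the IntS6 line with copper, against 6.68, 4.97 and 3.82 CPM in parental cells with copper. Every IntS6 library again lay above every parental one, with a log2 fold change of 0.78 ± 0.18 (adjusted p = 0.00572). Both genes were called in each of the 12 alternative fits of this comparison, between 0.95 and 1.29 on the log2 scale for GstE3 and between 0.62 and 1.00 for GstT3.

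GstE9 measured 30.4, 49.9 and 46.7 CPM in the IntS6 line with copper, against 18.8, 36.6 and 18.1 CPM in parental cells with copper. The groups overlapped through parental library B, and the log2 fold change was 0.76 ± 0.21 (adjusted p = 0.0244). Without parental library B it was 1.19. The call on GstE9 was lost without IntS6 library B (adjusted p = 0.123) or C (adjusted p = 0.105), and without parental library A (adjusted p = 0.123) or C (adjusted p = 0.128). It was also lost with DESeq2 (adjusted p = 0.117) and when the fit held only the groups compared (adjusted p = 0.114).

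GstT1 measured 19.9, 23.1 and 24.5 CPM in the IntS6 line with copper, against 25.9, 28.4 and 29.8 CPM in parental cells with copper. The groups did not overlap, and GstT1 was lower by a log2 fold change of -0.32 ± 0.09 (adjusted p = 0.0337). That call was lost without IntS6 library A (adjusted p = 0.197) or B (adjusted p = 0.0559) and without parental library B (adjusted p = 0.059) or C (adjusted p = 0.106). It was lost as well with DESeq2 (adjusted p = 0.0529), with library sizes alone (adjusted p = 0.0757) and with only the groups compared (adjusted p = 0.0898).

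The delta genes GstD1 and GstD3 were not called. GstD1 measured 188, 237 and 210 CPM in the IntS6 line with copper, against 133, 207 and 142 CPM in parental cells with copper (log2 fold change 0.40 ± 0.13, adjusted p = 0.0562). GstD3 measured 12.3, 15.1 and 15.5 CPM in the IntS6 line with copper, against 9.38, 13.6 and 10.1 CPM in parental cells with copper (log2 fold change 0.36 ± 0.13, adjusted p = 0.101). In both genes parental library B overlapped the IntS6 libraries. Deviations of same-letter libraries from their group means correlated weakly here (0.21, 0.24 and 0.14), and the labels do not say what the letters share. With the replicate block GstD1 (0.40, adjusted p = 0.0379) and GstD3 (0.37, adjusted p = 0.0296) were called, making 6 members in all. Without parental library B, GstD1 was called at 0.62 (adjusted p = 0.000770), GstD3 at 0.54 (adjusted p = 0.0109) and GstE11 at 0.72 (adjusted p = 0.0197). GstD3 was called with library sizes alone as well (adjusted p = 0.0426). GstD1 was also called with DESeq2 (adjusted p = 0.0476), library sizes alone (0.0332), no filter (0.000138) or without IntS6 library A (0.0484). Of the 12 alternative fits, 6 called GstD1 and 3 called GstD3. In the rest the adjusted p reached 0.259 for GstD1 and 0.324 for GstD3.

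The other named members were not called in the IntS6 line with copper against parental cells with copper. GstE11 had a log2 fold change of 0.34 (95% interval -0.09 to 0.77), and it measured 13.1, 18.5 and 12.4 CPM in the IntS6 line with copper. GstE7 measured 5.88, 6.84 and 6.02 CPM in the IntS6 line with copper, against 4.34, 5.03 and 4.50 CPM in parental cells with copper, with no overlap and a log2 fold change of 0.43 (95% interval 0.03 to 0.82, adjusted p = 0.192). GstO3 had a value of 0.38 (95% interval -0.04 to 0.79, adjusted p = 0.290), and it was called with no filter on low counts (adjusted p = 0.00136). GstO2 measured 17.1, 19.8 and 19.0 CPM in the IntS6 line with copper, against 14.5, 17.8 and 14.9 CPM in parental cells with copper, which overlapped, at 0.24 (95% interval -0.01 to 0.48). GstD4 overlapped too, at 1.03, 0.783 and 1.05 CPM in the IntS6 line with copper, against 0.853, 0.558 and 0.600 CPM in parental cells with copper (0.52, 95% interval -0.29 to 1.34). GstD5 had a value below 0, at 1.03, 0.855 and 0.771 CPM in the IntS6 line with copper and a log2 fold change of -0.71 (95% interval -1.44 to 0.01). Over the 19 members that were not called, values ran from -0.71 to 0.61. Blood cell measures also differed here: the plasmatocyte markers summed to 431 to 549 CPM in the IntS6 line with copper and to 330 to 377 CPM in parental cells with copper. Hml, which encodes the plasmatocyte protein hemolectin, averaged 33.2 ± 12.9 CPM in the IntS6 line with copper and 2.81 ± 1.05 CPM in parental cells with copper. Ppn, the most abundant marker, averaged 251 ± 36.0 and 171 ± 23.9 CPM in the same order. Not every marker differed: crq averaged 16.7 ± 2.33 and 18.6 ± 2.86 CPM, and Pxn 4.51 ± 0.971 and 4.39 ± 1.00 CPM. The part of these markers in the values of GstE3, GstE9, GstT1 and GstT3 was not tested.

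**Figure D4:**
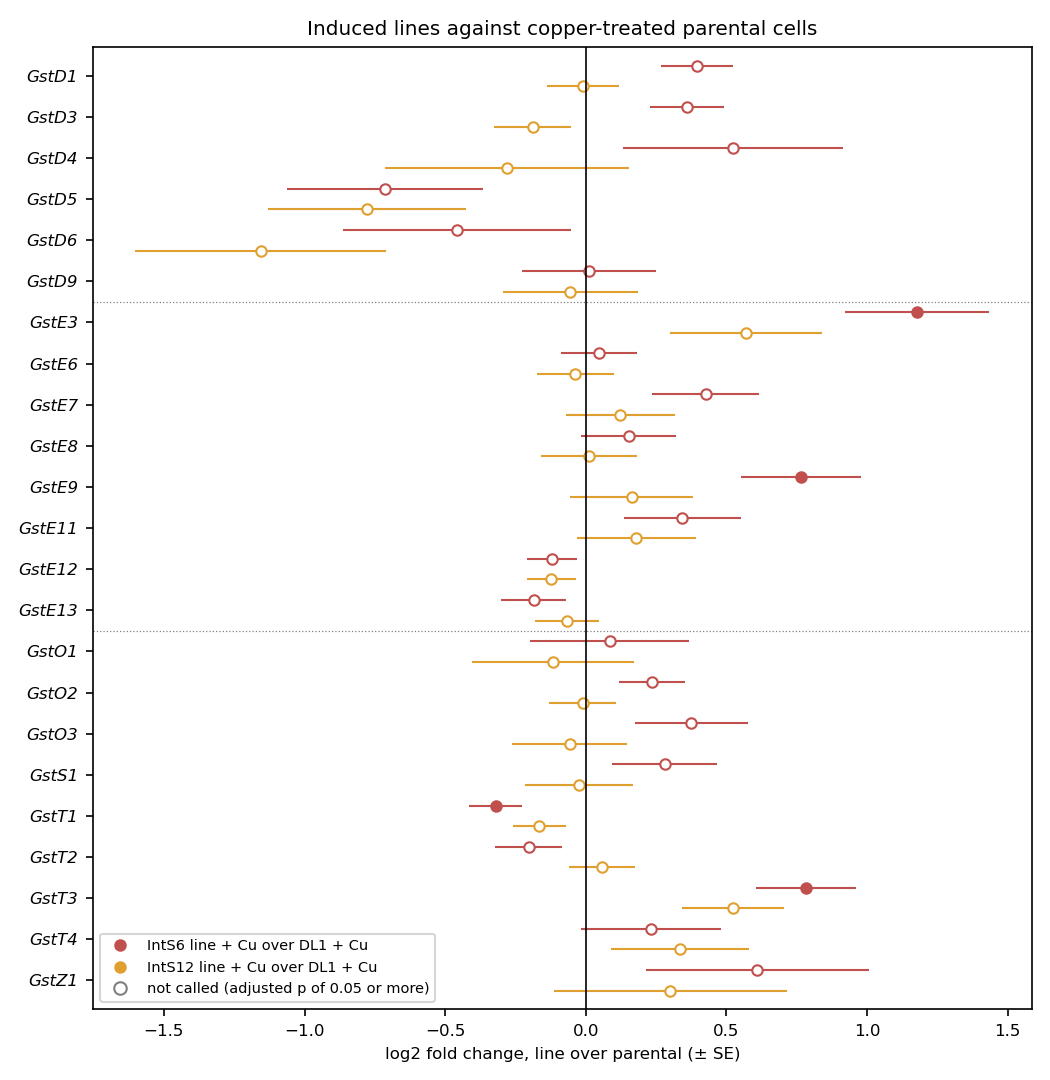
Log2 fold change of each copper-treated line over copper-treated parental cells (± SE, 3 libraries a group) for the 23 tested members; filled points reached an adjusted p under 0.05. GstE3, GstE9 and GstT3 are higher and GstT1 is lower in the IntS6 line with copper, and every point of the IntS12 line is open.

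Induced IntS12 gave no called member. In the IntS12 line with copper against parental cells with copper, 0 of 23 tested members were called, against 0.0245% of all tested genes. DESeq2 also called 0. An unadjusted p under 0.05 was reached by 4 members and by 297 of all 8174 tested genes. GstT3 measured 6.80, 7.59 and 7.92 CPM in the copper-treated IntS12 line, against 6.68, 4.97 and 3.82 CPM in parental cells with copper. The groups did not overlap, but the log2 fold change of 0.52 (95% interval 0.15 to 0.90) had an adjusted p of 1.00. GstE3 measured 2.33, 1.56 and 2.50 CPM in IntS12 cells with copper, against 1.49, 1.40 and 1.42 CPM in parental cells with copper. Its groups did not overlap either, at a log2 fold change of 0.57 (95% interval 0.01 to 1.13). The sparse delta genes GstD6 and GstD5 had values below 0. GstD6 measured 0.735, 0.271 and 0.203 CPM in IntS12 cells with copper, against 1.07, 0.838 and 0.900 CPM in parental cells with copper, with no overlap (-1.16, 95% interval -2.08 to -0.23). GstD5 measured 0.797, 0.677 and 1.08 CPM in IntS12 cells with copper, against 0.853, 1.84 and 1.65 CPM in parental cells with copper, with overlap (-0.78, 95% interval -1.51 to -0.05). GstT3, GstE3, GstD5 and GstD6 were the 4 members with an unadjusted p under 0.05.

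The other members with the smallest p in their class mostly overlapped between the copper-treated IntS12 line and parental cells. GstD3 measured 8.39, 10.8 and 10.2 CPM in IntS12 cells with copper, against 9.38, 13.6 and 10.1 CPM in parental cells with copper. GstD4 measured 0.551, 0.610 and 0.474 CPM in IntS12 cells with copper, against 0.853, 0.558 and 0.600 CPM in parental cells with copper. Their log2 fold changes were -0.19 for GstD3 (95% interval -0.47 to 0.10) and -0.28 for GstD4 (-1.18 to 0.62). The epsilon gene GstE12 measured 56.4, 48.9 and 58.8 CPM in IntS12 cells with copper, against 66.4, 58.9 and 53.4 CPM in parental cells with copper. GstE11 measured 10.5, 12.6 and 16.2 CPM in IntS12 cells with copper, against 7.68, 16.5 and 9.97 CPM in parental cells with copper. GstE9 measured 22.9, 28.4 and 32.1 CPM in IntS12 cells with copper, against 18.8, 36.6 and 18.1 CPM in parental cells with copper. Every interval of these epsilon genes held 0, with log2 fold changes of -0.12 for GstE12 (-0.31 to 0.06), 0.18 for GstE11 (-0.26 to 0.62) and 0.16 for GstE9 (-0.29 to 0.61). GstT1 measured 25.7, 23.8 and 25.5 CPM in IntS12 cells with copper, against 25.9, 28.4 and 29.8 CPM in parental cells with copper. GstT4 measured 2.82, 2.57 and 2.44 CPM in IntS12 cells with copper, against 2.84, 1.40 and 2.10 CPM in parental cells with copper. GstZ1 measured 0.735, 0.339 and 0.880 CPM in IntS12 cells with copper, against 0.497, 0.558 and 0.525 CPM in parental cells with copper. GstT1 alone of these 3 did not overlap, with log2 fold changes of -0.16 for GstT1 (-0.36 to 0.03), 0.33 for GstT4 (-0.17 to 0.84) and 0.30 for GstZ1 (-0.56 to 1.16). The 95% intervals of all 23 members together reached from -2.08 to 1.16, so small differences were not detectable here.

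Before induction no member was called between either line and parental cells. In the IntS6 line without copper against parental cells without copper, 0 of 23 members were called, against 0.208% of all tested genes. An unadjusted p under 0.05 was reached by 0 members and by 320 of all 8174 tested genes. Log2 fold changes ran from -0.66 to 0.52. In the IntS12 line without copper against parental cells without copper, 0 members were called, against 0.0367% of all tested genes. Here 0 members and 213 of all 8174 tested genes had an unadjusted p under 0.05. The log2 fold changes of the members ran from -0.63 to 0.41, and DESeq2 called 0 members in both comparisons. GstD1, for example, averaged 50.2 ± 4.27 CPM in the IntS6 line, 47.6 ± 6.04 CPM in the IntS12 line and 49.1 ± 4.28 CPM in parental cells, all without copper. GstE7 measured 1.45, 0.998 and 1.43 CPM in the untreated IntS6 line, against 0.920, 0.820 and 0.943 CPM in untreated parental cells. Its groups did not overlap (log2 fold change 0.52, not called). GstD3 and GstE11 of the IntS6 line and GstT2 of the IntS12 line also lay above parental cells without overlap. How often this occurs over all tested genes was not counted.

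Between the induced lines, 1 of 23 members was higher in the IntS6 line with copper than in the IntS12 line with copper, and 0 were lower, against 5.8% of all tested genes called, 5.06% higher and 0.734% lower. GstD3 measured 12.3, 15.1 and 15.5 CPM in the IntS6 line with copper, against 8.39, 10.8 and 10.2 CPM in the IntS12 line with copper, with no overlap. Its log2 fold change was 0.55 ± 0.13 (adjusted p = 0.0142). The call on GstD3 was lost without IntS6 library B (adjusted p = 0.0599) or C (adjusted p = 0.0804) and without IntS12 library A (adjusted p = 0.105). GstD1 measured 188, 237 and 210 CPM in the IntS6 line with copper, against 144, 160 and 174 CPM in the IntS12 line with copper. Its libraries did not overlap, yet the adjusted p was 0.0659 (log2 fold change 0.41 ± 0.13). GstE9 stood at 0.60 ± 0.21 with an adjusted p of 0.107, and GstE3 at 0.61 ± 0.24 with an adjusted p of 0.165.

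The copper response itself differed from that of parental cells in 1 member. For the IntS6 line, 1 of 23 members had a response that was higher than the parental one, against 1.16% of all tested genes called, 1.13% higher and 0.0367% lower. GstT3 measured 9.53, 8.40 and 8.69 CPM in the IntS6 line with copper, against 4.19, 3.59 and 2.72 CPM in the IntS6 line without copper. This was a rise of 1.35 ± 0.19 on the log2 scale, beside 0.70 ± 0.18 in the IntS12 line and 0.23 ± 0.20 in parental cells. The difference between the IntS6 and parental responses of GstT3 was 1.11 ± 0.27 (95% interval 0.55 to 1.68, adjusted p = 0.046). The call did not hold with library sizes alone (adjusted p = 0.063) or with only the groups compared (adjusted p = 0.127). The call on GstT3 was also lost, at adjusted p from 0.0679 to 0.186, in 9 of 12 fits that left out 1 library: each IntS6 copper library, IntS6 untreated libraries B and C, parental copper libraries B and C, and parental untreated libraries A and B.

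GstE3 had a larger difference of responses than GstT3, at 1.57 ± 0.56, but from counts near the detection limit, and it was not called (95% interval 0.40 to 2.73, adjusted p = 0.243). GstT1 had a difference of -0.36 ± 0.14 (adjusted p = 0.305) and GstE13 of -0.38 ± 0.17 (adjusted p = 0.388). For the IntS12 line, 0 of 23 members differed in response from parental cells, against 0.0122% of all tested genes called. Of all 8174 tested genes 174 had an unadjusted p under 0.05, and of the members 1 did. That member was GstD6, at -1.38 (95% interval -2.66 to -0.11), and DESeq2 also called 0.

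Summed over the 35 members, the family stood at 679 ± 78.1 CPM per kb in the IntS6 line with copper and 205 ± 17.1 CPM per kb in the IntS6 line without copper. For the IntS12 line the sum was 561 ± 60.0 CPM per kb with copper and 205.5 ± 14.5 CPM per kb without copper. In parental cells it was 567 ± 105 CPM per kb with copper and 204.7 ± 10.0 CPM per kb without copper. The lowest copper-treated library of each kind of cell lay above its highest untreated library. Copper library B of the parental cells reached 687 CPM per kb, which placed it inside the range of the IntS6 line with copper (601 to 757 CPM per kb). These sums follow the most abundant genes: GstD1 made up 33.4% ± 2.19 of the summed level in parental cells with copper and 28.4% ± 1.16 in parental cells without copper.

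The makeup of the family shifted with copper. The other classes made up 20.0% ± 2.23 of the summed level per kilobase in parental cells with copper and 25.8% ± 1.49 in parental cells without copper. In the IntS6 line the other classes made up 18.9% ± 0.829 with copper and 25.7% ± 0.717 without copper. In IntS12 cells they made up 19.6% ± 1.58 with copper and 26.8% ± 0.402 without copper. The delta class made up 38.3% ± 2.05 in parental cells with copper and 34.3% ± 1.05 without copper, and the epsilon class 41.8% ± 1.59 with copper and 39.9% ± 1.17 without copper. The share of GstE12, an abundant epsilon gene that rose little, was 7.69% ± 1.73 in parental cells with copper and 15.5% ± 1.21 without copper. GstE9 made up 5.33% ± 1.25 in parental cells with copper and 2.25% ± 0.110 without copper. As raw counts, the members took up 0.171% to 0.224% of the counts outside rRNA in parental cells with copper and 0.0687% to 0.0761% without copper.

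**Figure D5:**
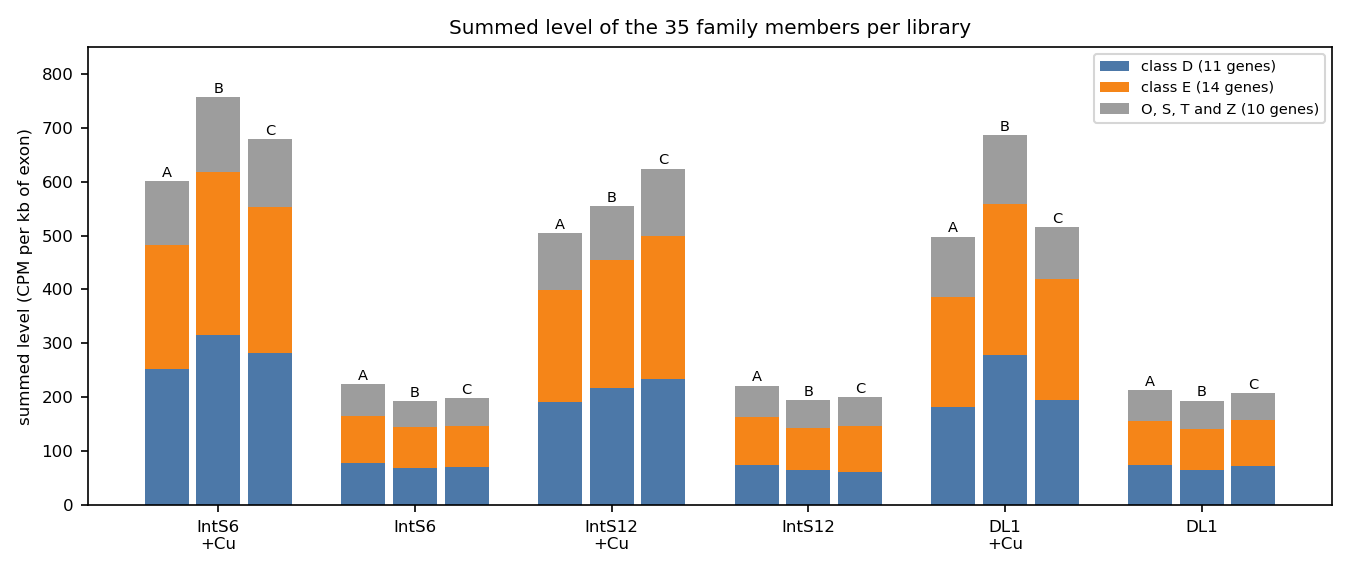
Summed level per kilobase of exon (CPM per kb) of the 35 members in each library, stacked by class D, E and others, for the IntS6 line, the IntS12 line and parental DL1 cells, each with copper left of without copper. Untreated libraries lie between 193 and 225 CPM per kb and copper-treated ones between 498 and 757 CPM per kb, with parental copper library B at 687.

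Glutathione genes outside the family were read from a separate list of 18 names, of which 15 were tested and Noppera-bo is GstE14, a member. Trxr2 had no counts and se had 16, and neither was tested. In parental cells with copper against those without, 7 of the 15 rose and 1 fell, beside 19.3% higher and 19.4% lower over all tested genes, and the median log2 fold change was 0.46, beside 0.00. Gclc, the catalytic subunit of the enzyme that limits glutathione synthesis, averaged 33.8 ± 2.73 CPM with copper and 11.8 ± 1.22 CPM without copper (log2 fold change 1.53 ± 0.10). Gclm, its modifier subunit, averaged 8.04 ± 0.622 CPM with copper and 7.80 ± 0.246 CPM without copper and was not called. The glutathione synthase genes Gss1 and Gss2 were not called either.

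The regulators also rose in parental cells with copper. Keap1, the inhibitor of cnc, rose by 1.40 ± 0.16 on the log2 scale and cnc by 0.74 ± 0.08, while maf-S, the partner of cnc, was not called. Mrp4, an export pump of the kind that carries conjugates out of cells, averaged 65.5 ± 17.4 CPM with copper and 12.3 ± 1.57 CPM without copper, a rise of 2.41 ± 0.20. The related pump gene MRP rose by 0.53 ± 0.06. Mgstl, the membrane-bound microsomal glutathione S-transferase, rose by 0.59 ± 0.12, and Trxr1, the reductase that in flies also keeps glutathione reduced, by 0.46 ± 0.08. The gene that fell was eEF1gamma, a translation factor with a glutathione S-transferase-like domain, by 0.19 (SE 0.05).

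In the lines, 8 of these 15 genes rose and 2 fell with copper in the IntS6 line, and 7 rose and 2 fell in the IntS12 line. Over all tested genes the shares were 23.2% higher and 19.3% lower in the IntS6 line, and 19.2% higher and 17.6% lower in the IntS12 line. The second gene that fell was gfzf, which encodes a zinc finger protein with a glutathione S-transferase domain (-0.29 ± 0.08 in the IntS6 line and -0.21 ± 0.08 in the IntS12 line). Ggt-1, a gamma-glutamyl transferase that breaks down glutathione outside the cell, was called between the IntS6 line with copper and parental cells with copper, 1 of 15 genes of the list, beside 8.91% of all tested genes. It averaged 1.37 ± 0.614 CPM in the IntS6 line with copper and 0.165 ± 0.104 CPM in parental cells with copper (log2 fold change 2.88 ± 0.53, adjusted p = 0.000799). Ggt-1 was also called between the IntS6 line with copper and the IntS12 line with copper (3.28 ± 0.56, adjusted p = 0.000605). It had 86 counts over all 18 libraries and passed the filter only through the IntS6 line with copper, so that it had to differ there. The same limit holds for its rise with copper in the IntS6 line, which is among the 8 counted above. No gene of the list was called in the IntS12 line with copper against parental cells with copper, or between the untreated groups.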

How the data were processed

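The deposited table holds the authors' estimated counts per gene for 18 libraries, of which 13.4% of values were not whole. Per the submitters' processing notes, Trimmomatic 0.39 did the trimming and featureCounts the counting, with dm6 and BDGP6 named as builds. Aligner, strand setting and treatment of shared reads: not given in the sources used here. Counts were rounded and tested in R 4.3.3 with edgeR 4.0.16: 1 fit of 6 group means to all libraries, TMM factors, and the default filter (minimum count 10), which kept 8174 of 13350 genes with any count. The quasi-likelihood test had 12 residual degrees of freedom, a prior of 9.62 and a biological coefficient of variation of 8.02%. A call needed an adjusted p (Benjamini-Hochberg, over all tested genes) under 0.05 in each of 10 comparisons, of which several share control libraries. rRNA genes were kept. CPM used TMM-scaled library sizes, and levels per kb used exon bases of BDGP6.54. Symbols were found for 17626 identifiers. The scripts were tested on simulated counts.

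The members and lists were chosen with earlier results of these data known. Values in every library were given for up to 4 members per class with the smallest p for copper in parental cells and for each copper-treated line against parental cells, and for members whose copper response differed. GstO1, the summed shares and the sentences on single calls were chosen after the values were seen. Replicates were compared first: the 18 pairs within groups differed beyond counting noise (chi-square per degree of freedom 4.58 to 15.2). The letters A, B and C come from the titles. Deviations of same-letter libraries from their group means correlated above 0.1 in every pair for IntS6 with copper against parental with copper (0.21, 0.24 and 0.14) and for copper in parental cells (0.12, 0.11 and 0.28), and not in the other comparisons. Alternatives were DESeq2 1.42.0, library sizes alone, rRNA genes left out, no filter, a replicate block, only the groups compared, and each library left out.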

Additional observations from a re-analysis of the deposited data

Results flagged for a closer look

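GstT3 responded to copper more in the IntS6 line than in parental cells: the difference of the log2 fold changes was 1.11 ± 0.27 (edgeR quasi-likelihood test, adjusted p = 0.046, 3 libraries a group). It stands out because the difference between the responses itself passed the test. The rise was 1.35 in the IntS6 line and 0.23 in parental cells. For the IntS6 line over parental cells, the log2 fold change of GstT3 was 0.78 with copper and -0.33 without copper, the latter not called. The call on GstT3 was kept in 7 of 18 alternative fits and lost in 11.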

How the results depend on the processing

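No value changed sign past the threshold in any alternative. The counts of called members for copper stayed within 1.5 times the reported 20 in each kind of cell: 18 to 20 in parental cells, 17 to 21 in the IntS6 line and 18 to 19 in the IntS12 line when 1 library was left out. The 4 members called for IntS6 with copper against parental with copper became 2 with only the groups compared and 2 to 6 when 1 library was left out. The 1 member called for IntS6 with copper against IntS12 with copper became 4 with no filter on low counts, 2 with the replicate block, 4 with only the groups compared and 0 to 2 when 1 library was left out. The 1 member whose copper response differed between the IntS6 line and parental cells became 0 with library sizes alone, 0 with only the groups compared and 0 to 1 when 1 library was left out. The replicate block gave 6 members for IntS6 with copper against parental with copper. It changed no other count in the comparisons where same-letter deviations correlated above 0.1. In the remaining comparisons, the block changed the count between the copper-treated lines alone. The causes of these shifts were not tested. Over all genes, IntS6 with copper against parental with copper gave 728 called genes as reported and 454 with only the groups compared. IntS6 with copper against IntS12 with copper gave 474 as reported, and 307 when library A of IntS12 with copper was left out, 309 when its library C was, and 315 when library C of IntS6 with copper was. The difference of the IntS6 and parental copper responses gave 95 genes as reported, 238 with no filter, 151 with the replicate block and 62 with only the groups compared. With 1 library left out it gave 43 to 99, the most without library A of the untreated IntS6 line. The lowest counts were 43 for library A of untreated parental cells, 46 and 48 for libraries C and B of the untreated IntS6 line, and 48 for library A of IntS6 with copper. Without the filter, the calls for the untreated lines against parental cells were 48 for IntS6 against 17 as reported and 32 for IntS12 against 3 as reported, and those for IntS12 with copper against parental with copper 22 against 2 as reported. The difference of the IntS12 and parental copper responses gave 8 without the filter against 1 as reported. In the other fits IntS12 with copper against parental with copper gave 1 to 7 calls, and the untreated IntS12 line against parental cells 1 to 6. No other scaling moved the median of all genes by over 0.05 on the log2 scale. Over the 230 member values, 3024 refits kept the side of the threshold in 2948 cases, lost a call in 53 and gained one in 23. Summing members of near-identical protein sequence was not run. Sparse members such as GstD4, GstD5, GstD6 and GstE3 rest on few counts per library.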
